A study of Mus musculus with 16 samples.

Results

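Alcohol vapor was compared with air within 3xTg-AD mice, a mouse model of Alzheimer's disease, by adding up the RNA counts of all nuclei of each mouse. The members of the comparison are 8 of the 16 mice measured: 4 labelled AD_alcohol, 3xTg-AD (mice 4, 31, 33 and 34) and 4 labelled AD, 3xTg-AD (mice 12, 13, 14 and 21). They were chosen by these labels alone, and the mouse is the replicate. 3xTg-AD mice carry human APP with the Swedish mutation and a mutant human tau, both driven by a Thy1 promoter cassette that is active in neurons, in a B6;129 background. They also carry a knockin of a presenilin mutation. All mice were males aged 22 weeks. The vapor mice were injected with ethanol and pyrazole, an alcohol dehydrogenase inhibitor, and breathed ethanol vapor in repeated intermittent cycles. The air mice also received pyrazole, in saline, and breathed air in chambers, so that pyrazole, injection and chamber are shared by both groups. Every mouse had been trained in a water maze, and the vapor mice were killed in withdrawal, days after the last vapor. Nuclei of the medial prefrontal cortex were sequenced by droplet 3′ RNA-Seq (10x Genomics). The other 8 mice were WT mice, 4 with vapor (labelled alcohol) and 4 with air (labelled ctrl), and they serve here to show whether a value differs between genotypes and share the estimate of the spread in the test. No gene of the table stands for either human transgene.

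Ethanol enhances inhibition through GABA-A receptors and dampens excitation through NMDA receptors, and the brain adapts to repeated intoxication so that withdrawal shifts this balance. Glia take part in the response: microglia and astrocytes produce complement proteins, interferon-stimulated proteins and antigen-presenting molecules when activated. In Alzheimer models, complement tags synapses for removal by microglia, and reactive astrocytes and microglia gather around amyloid. The comparison asks which of these genes differ in 3xTg-AD cortex when the mice have a history of repeated alcohol intoxication.

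The 8 mice gave 57759 of the 114512 nuclei in the table, which lists 19999 genes. The air mice had 5865 to 7227 nuclei and the vapor mice 4955 to 9096. Summed UMIs, the counted RNA molecules, were 11665883 to 12395978 per air mouse and 12422354 to 16977812 per vapor mouse. All 4 vapor libraries were deeper than all 4 air libraries (two-sided exact permutation test, p = 0.0286, the smallest that 4 against 4 mice allow), whereas median UMIs per nucleus overlapped (p = 0.257, exact permutation test). Gm42418, a transcript overlapping ribosomal RNA sequence, took 1.79% of the UMIs of air mouse 12 and 0.206% to 0.398% in the other 7 mice. Among these nuclei, 787 (1.36%) shared a cell barcode with another of the 8 libraries. Levels are given as counts per 1000000 summed UMIs of a mouse (CPM), after edgeR's TMM scaling, which can move them slightly from the plain share. A change in such a sum cannot be told apart from a change in the share of nuclei of a type.

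Vapor and air differed in 81 of the 16767 genes tested (0.483%). Of these, 10 genes were higher in vapor mice (0.0596%) and 71 were lower (0.423%). These calls are at an adjusted p of at most 0.05 in edgeR's quasi-likelihood test with Benjamini-Hochberg adjustment. At an unadjusted p under 0.05, 841 genes were higher (5.02%) and 1172 lower (6.99%), and the median log2 fold change of all genes was 0.01. DESeq2 called 386 of 19999 genes (1.93%), of which 1182 had no adjusted p, and the calls include all 81. The groups did not overlap for 10 of the 10 higher and 70 of the 71 lower genes, where 2.64% and 4.41% of all tested genes did not overlap in these directions. Every one of the 81 kept its sign whichever of the 8 mice was left out. The same comparison chose the 81, and where groups do not overlap, leaving out a single mouse can hardly turn the sign. The kept sign and the lack of overlap are therefore no separate support. The number of calls did not hold: it was 0 without air mouse 13, air mouse 21, or vapor mouse 31, 33 or 34 (1546 to 2031 genes at an unadjusted p under 0.05 in these fits), 61 without vapor mouse 4, 86 without air mouse 14 and 244 without air mouse 12. It was 1008 with the level of Gm42418 as a covariate and 169 in a fit of the 8 3xTg-AD mice alone.

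The higher genes with a name were C4b, F3, Pdgfra and Zfp438, of which the first 3 have known homes in glia. C4b encodes complement component C4, which helps tag synapses and debris for uptake (chromosome 17, 34728380 to 34743882, minus strand, mm10). C4b was at 11.2, 17.1, 22.7 and 25.3 CPM in vapor mice 4, 31, 33 and 34 and at 5.94, 7.46, 7.08 and 6.61 CPM in air mice 12, 13, 14 and 21. The lowest vapor mouse stood above the highest air mouse, and the vapor mice spread over a wider range than the air mice. The log2 fold change was 1.49 ± 0.25 (SE, n = 4 mice per group, edgeR adjusted p = 0.0177). F3 encodes tissue factor, the starter of blood clotting, which astrocytes express in brain. F3 was at 29.0, 28.6, 35.6 and 27.5 CPM in the vapor mice and 13.9, 17.01, 21.7 and 20.3 CPM in the air mice, in the same order of mice, a log2 fold change of 0.73 ± 0.14 (adjusted p = 0.0314, edgeR). The lowest vapor mouse was again above the highest air mouse. Pdgfra encodes the growth factor receptor that marks oligodendrocyte precursor cells (OPCs). It was at 19.4, 22.5, 24.0 and 23.8 CPM with vapor and 13.5, 15.3, 17.8 and 14.6 CPM with air, a log2 fold change of 0.55 ± 0.10 (adjusted p = 0.0258, edgeR), again without overlap. Zfp438, a zinc finger gene, was at 8.92, 8.97, 9.22 and 12.3 CPM with vapor and 6.71, 4.86, 4.12 and 6.69 CPM with air (log2 fold change 0.81 ± 0.18, adjusted p = 0.0478, edgeR).

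The other 6 higher genes have predicted or clone names: 0610040B10Rik, 5430403G16Rik, Gm16794, Gm43260 and E130114P18Rik, with log2 fold changes of 0.78 to 1.21, and Gm4724, which was listed at 0 in all 4 air mice and at 0.535 to 0.958 CPM in the vapor mice. The table holds no gene counted in 1 to 4 nuclei of a mouse, so that a 0 means fewer than 5 nuclei, and no fold is given for Gm4724. Just beyond the threshold stood 6 named genes that did not pass it. Fcer1g, the microglial Fc receptor subunit, had a log2 fold change of 0.82 (adjusted p = 0.051, edgeR), and Ifitm3, an interferon-induced membrane protein that restricts virus entry, had 1.28 (0.0521). Vps50, a vesicle sorting subunit, was at 0.52 (0.051), Selenop, the selenium carrier, at 0.54 (0.0544), Atp6v0e, a proton pump subunit, at 0.33 (0.0557), and Mthfd2l, a mitochondrial folate enzyme, at 0.53 (0.0557).

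**Figure D1:**
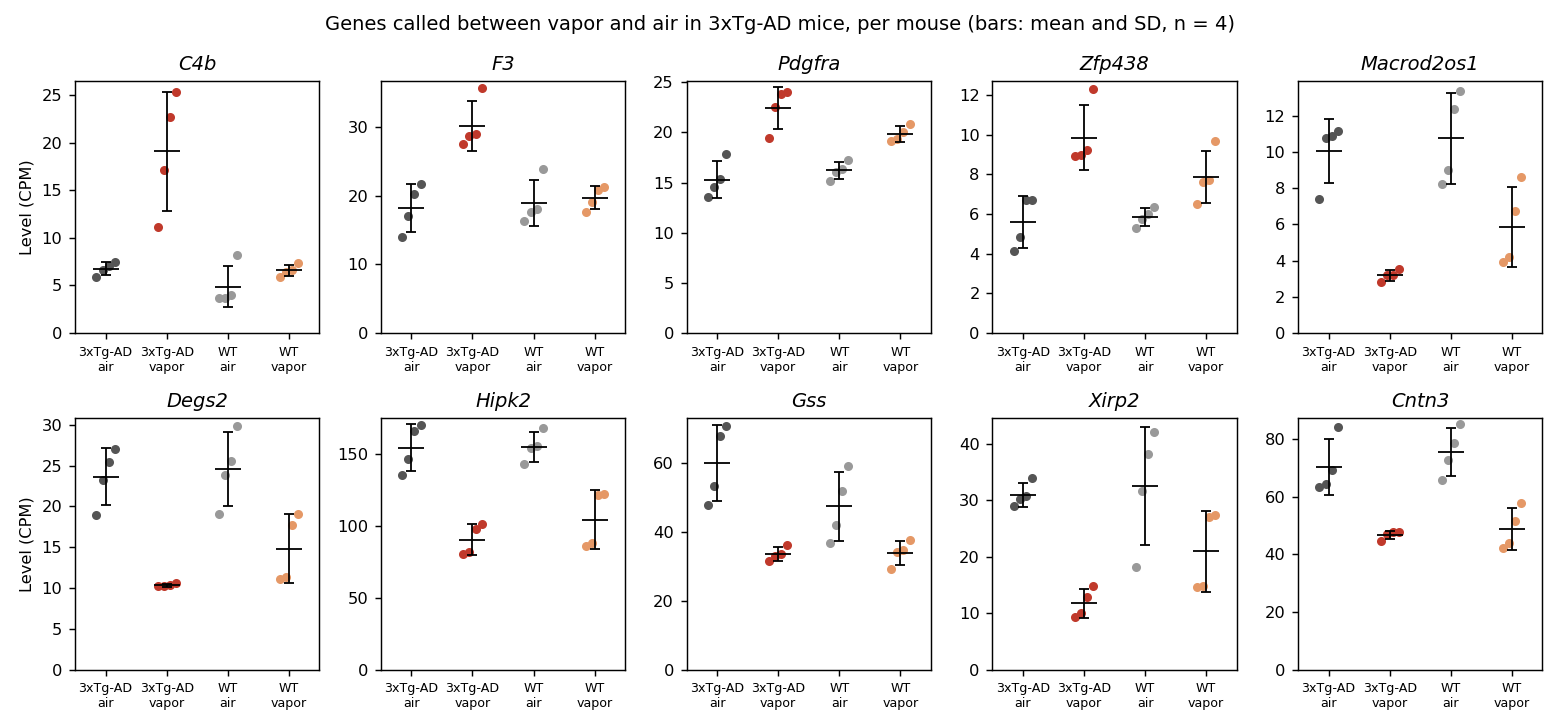
Level in CPM (y axes, from 0) of 10 genes called between vapor and air in 3xTg-AD mice, in each mouse of the 4 groups (x axes). Points are mice, black bars the mean and SD of 4 mice. The vapor and air points of 3xTg-AD mice do not overlap in any of the 10 panels, with C4b at 11.2 to 25.3 against 5.94 to 7.46 CPM and Macrod2os1 at 2.80 to 3.53 against 7.41 to 11.1 CPM.

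Many of the lower genes lay on the strand opposite to a protein-coding gene. Their mean level in air mice had a median of 13.2 CPM (0.743 to 246), where that of all tested genes was 17.8 CPM. The smallest p among named genes was that of Macrod2os1, a noncoding transcript on chromosome 2 (minus strand, inside Macrod2 on the other strand). It was at 3.53, 3.21, 3.22 and 2.80 CPM in vapor mice 4, 31, 33 and 34 and 10.8, 11.1, 7.41 and 10.9 CPM in air mice 12, 13, 14 and 21. All 4 vapor mice lay close together and below every air mouse, a log2 fold change of -1.65 ± 0.24 (adjusted p = 0.0112, edgeR). Degs2, which hydroxylates ceramide precursors, was at 10.2, 10.6, 10.4 and 10.2 CPM with vapor and 23.2, 25.4, 18.9 and 26.99 CPM with air (log2 fold change -1.19 ± 0.18, adjusted p = 0.0112, edgeR). The vapor mice hardly differed among themselves, and the air mice all lay above them.

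Genes of signalling and metabolism were among the lower ones. Hipk2, a nuclear kinase that acts on p53 and other transcription factors, was at 98.0, 101, 81.9 and 80.7 CPM with vapor and 170, 166, 136 and 147 CPM with air (log2 fold change -0.77 ± 0.13, adjusted p = 0.0177, edgeR). Gss, glutathione synthetase, which makes the main antioxidant of the cell, was at 33.5, 32.97, 31.6 and 36.2 CPM with vapor and 53.4, 70.7, 47.9 and 68.0 CPM with air, a log2 fold change of -0.84 ± 0.14 (0.02). Neither gene overlapped between the groups. Cntn3, a neuronal cell adhesion molecule, was at 47.6, 47.1, 44.7 and 47.7 CPM with vapor and 84.2, 64.3, 63.5 and 69.1 CPM with air (log2 fold change -0.59 ± 0.12, adjusted p = 0.0314, edgeR). Xirp2, an actin-binding protein best known from muscle, was at 14.7, 10.0, 12.9 and 9.24 CPM with vapor against 30.2, 28.9, 33.9 and 30.8 CPM with air (-1.39 ± 0.25, 0.02). Cxcr6, a chemokine receptor of lymphocytes, was at 0.789 to 1.08 CPM with vapor and 1.98 to 3.74 CPM with air, and lies inside Fyco1 on the opposite strand. Masp2, a protease that starts the lectin pathway of complement and fell while C4b rose, was at 12.4 to 14.4 CPM with vapor and 21.9 to 35.3 CPM with air (log2 fold change -1.15 ± 0.21, adjusted p = 0.0234, edgeR). Masp2 partly overlaps Tardbp on the opposite strand.

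Among the remaining named genes, Iqcg (-0.98), Lrrc19 (-1.23), Naalad2, a peptidase related to the one that cleaves N-acetylaspartylglutamate (-0.99), Sbspon (-0.93) and Abra, an actin-binding activator (-0.88), were lower on the log2 scale. Of olfactory receptor genes, Olfr239 (-1.17), Olfr539 (-0.95), Olfr259, Olfr46 and Olfr76 were called lower, 5 of the 69 lower genes that could be matched to the annotation (7.25%), where 0.375% of all tested genes are olfactory or vomeronasal receptors. Gm11250 and Olfr76 were listed at 0 in all 4 vapor mice and at 0.577 to 0.838 and 0 to 1.27 CPM in the air mice, and no fold is given for them. Olfr259 and Olfr46 are named because the group is small, after their values were seen. For 61 of the 71 lower genes, the highest of the 4 air mice was mouse 13 or mouse 21. The share of all tested genes with this trait is not given here, so that it cannot be called particular to the lower genes.

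Many of the lower genes were noncoding or lay opposite to a protein-coding gene. By the GENCODE annotation of the same build, 38 of the 69 matched lower genes were noncoding (55.1%), against 14.1% of the tested genes, and 30 lay wholly inside a protein-coding gene on its opposite strand (43.5% against 5.58%). Another 17 overlapped one in part on its opposite strand (24.6% against 19.3% of the tested genes), and 22 overlapped none (31.9% against 69.3%). Gm14329, inside the NMDA receptor gene Grin2b on the opposite strand, was at 2.40, 0.832, 1.34 and 1.48 CPM with vapor and 7.66, 5.45, 6.26 and 9.47 CPM with air (log2 fold change -2.25 ± 0.40, adjusted p = 0.02, edgeR). Gm15577, inside Negr1, was at 11.1, 11.3, 12.3 and 11.1 CPM with vapor and 24.4, 32.6, 24.3 and 30.3 CPM with air (-1.29 ± 0.20, 0.0112). 4930453C13Rik, inside the ataxin gene Atxn1, was at 1.73 to 3.53 CPM with vapor and 6.51 to 10.2 CPM with air (-1.71 ± 0.25, 0.0112). These 3 were picked as examples after their values were seen, and in each the groups were apart. For the genes on the other strand, the log2 fold change was 0.03 for Grin2b, -0.02 for Negr1, -0.04 for Atxn1 and 0.01 for Macrod2. Over the 45 tested genes that lie opposite to a lower gene, the median was -0.01 (-0.37 to 0.63), 24 were below 0 and 0 passed the test.

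The tested genes at such positions had a lower median than genes at other positions. The 922 tested genes inside a protein-coding gene on the opposite strand had a median log2 fold change of -0.40. Of these, 319 were lower and 21 higher at an unadjusted p under 0.05, where 6.99% and 5.02% of all tested genes were. Among the 11445 genes without overlap, 535 were lower and 580 higher at that threshold. Genes inside a protein-coding gene on the same strand had a median of 0.08, genes without overlap 0.02 and genes with partial overlap on the opposite strand 0.00. Summed over all 1361 such opposite-strand genes of the table, the level was 15772, 15103, 15066 and 15084 CPM in vapor mice 4, 31, 33 and 34 and 15939, 18527, 16663 and 18056 CPM in air mice 12, 13, 14 and 21, a ratio of 0.882 (exact permutation test, p = 0.0286, adjusted p = 0.267 over 56 sums). Vapor mouse 4 and air mouse 12 nearly met. Their 982 noncoding members stood further apart, at 5312 to 6241 CPM with vapor and 6765 to 8513 CPM with air, a ratio of 0.780 (p = 0.0286, adjusted p = 0.267, exact permutation test). That p is the smallest the test allows, and a sum that reaches it alone cannot pass adjustment over 56 sums. The medians and sums hold called lower genes of these same mice, so that they are no separate support for the calls. In WT mice the ratios were 0.982 and 0.896 (p = 0.686 and 0.229, exact permutation test). The use of strand and of introns in the counting is not given in the sources used here, so that reads of these genes and of the genes opposite to them are uncertain. The deeper libraries were those of the vapor mice, and the part of depth in this result was not tested.

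**Figure D2:**
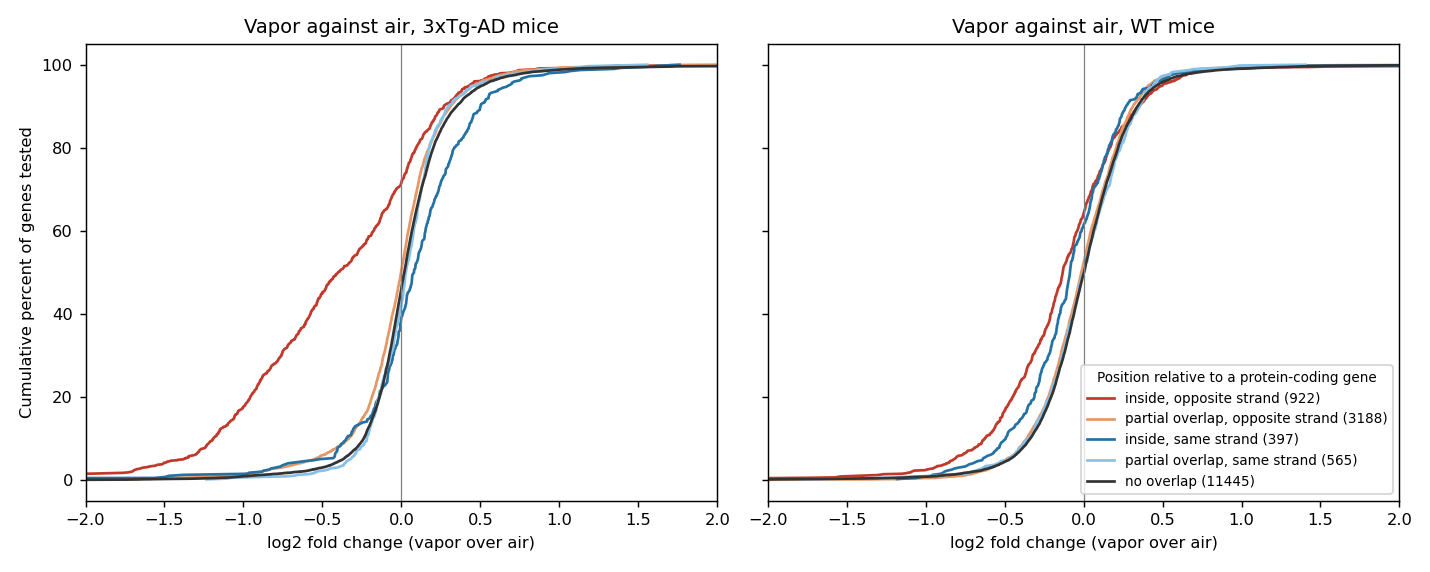
Cumulative percent of tested genes (y axis) against the log2 fold change of vapor over air (x axis), in 3xTg-AD mice (left) and WT mice (right), by position relative to a protein-coding gene (line colors). The curve of genes inside a protein-coding gene on the opposite strand lies to the left of the others in 3xTg-AD mice (median -0.40) and less so in WT mice (median -0.13).

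Interferon-stimulated genes, which cells switch on when type I interferon binds its receptor, were high in the vapor group mainly through 1 mouse. Of 38 tested members, 37 had a log2 fold change above 0, 18 were higher and 0 lower at an unadjusted p under 0.05, and 0 passed the adjusted test of edgeR (2 higher in DESeq2). The median was 0.78. Summed over the list, vapor mice 4, 31, 33 and 34 were at 340, 437, 394 and 981 CPM and air mice 12, 13, 14 and 21 at 321, 367, 388 and 327 CPM (exact permutation test, p = 0.114). Only mouse 34 stood far from the rest. Without it, the median of the list was 0.20 and 4 of 39 tested members were higher at an unadjusted p under 0.05. Over all genes, 1665 of 17031 were under that threshold in either direction without mouse 34, and 5.02% were higher with all mice. Oasl2, an oligoadenylate synthetase-like antiviral protein, was at 50.8 CPM in mouse 34 and 1.14, 4.46 and 5.16 CPM in vapor mice 4, 31 and 33, with 1.03 to 2.24 CPM in the air mice. Ifit1, which binds foreign RNA caps, was at 68.6 CPM in mouse 34 and 2.46, 4.22 and 4.92 CPM in the other vapor mice, with 3.46 to 3.98 CPM in the air mice. In both genes the other vapor mice lay far below mouse 34. Ifitm3 differed in that all vapor mice were above the air mice, at 10.1, 13.2, 17.7 and 26.1 CPM against 7.83, 5.45, 7.74 and 6.53 CPM.

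The high level of mouse 34 was seen in all 7 classes of nuclei in which it could be measured. Pericyte-like nuclei, the remaining class, numbered 0 in mouse 34. Free RNA was not removed, and its part in these levels was not tested. Summed over the list, per 1000000 UMIs of the class and without TMM scaling, mouse 34 was at 2455 CPM in astrocyte-like nuclei, where the other 7 mice were at 336 to 749 CPM, and at 741 CPM in glutamatergic-neuron-like nuclei against 272 to 359 CPM. In GABAergic-neuron-like nuclei it was at 444 CPM against 221 to 351, in oligodendrocyte-like nuclei at 1198 against 291 to 476, in OPC-like nuclei at 2191 against 426 to 854, in microglia-like nuclei at 3901 against 1077 to 2745 and in endothelial-like nuclei at 5679 CPM against 1981 to 4281 CPM. Mouse 31 also stood above every air mouse in all of these classes but the glutamatergic-neuron-like one. Mouse 31 was at 2745 CPM in microglia-like nuclei (air at most 1640 CPM). Mice 31 and 33 were at 4281 and 3954 CPM in endothelial-like nuclei (air at most 3259 CPM) and at 720 and 749 CPM in astrocyte-like nuclei (air at most 583 CPM). Mouse 31 was at 351 CPM in GABAergic-neuron-like nuclei (air at most 299), 476 in oligodendrocyte-like nuclei (at most 457) and 854 in OPC-like nuclei (at most 850). Few UMIs of the list lay behind the last of these near ties. In oligodendrocyte-like nuclei they were 90 in mouse 31 and 45 in air mouse 21, and in OPC-like nuclei 84 in mouse 31 and 35 in air mouse 14. Mouse 34 was thus the highest of the 8 mice in all 7 classes.

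Promoters of this list often hold GAAA and a further GAAA after 2 free bases, the core to which interferon-activated factors bind, which was searched on both strands. In the 250 bases before the annotated start (RefSeq, GRCm38.p6), it was found in 12 of the 33 members with a window (36.4%), against 369 of 12230 tested genes (3.02%). In the MHC class I list this motif was in 2 of 13 genes (15.4%) and in the complement list in 1 of 8 (12.5%). The windows of Ifitm3 and H2-K1 held no match. The windows of the 3 motif-holding members with the smallest p, Bst2, Ddx60 and Ifit3, are printed, and capitals mark the matches. In mouse 34 these genes were at 35.97, 21.9 and 30.3 CPM. The motif-holding members Ifit1, Stat2 and Isg15 were higher in that mouse, at 68.6, 64.7 and 54.0 CPM. Bst2, which tethers virus particles to the cell, was at 4.13, 8.97 and 13.1 CPM in vapor mice 4, 31 and 33, Ddx60, a helicase that senses viral RNA, at 1.44, 3.03 and 2.18 CPM, and Ifit3, a partner of Ifit1, at 4.19, 4.75 and 9.59 CPM.
Bst2, chr8:71537473-71537722 on the minus strand: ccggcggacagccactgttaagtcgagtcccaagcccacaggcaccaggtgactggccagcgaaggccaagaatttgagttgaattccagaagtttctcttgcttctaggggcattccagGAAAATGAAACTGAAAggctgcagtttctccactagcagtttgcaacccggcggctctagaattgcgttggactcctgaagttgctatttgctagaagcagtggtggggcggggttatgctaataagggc 
Ddx60, chr8:61927837-61928086 on the plus strand: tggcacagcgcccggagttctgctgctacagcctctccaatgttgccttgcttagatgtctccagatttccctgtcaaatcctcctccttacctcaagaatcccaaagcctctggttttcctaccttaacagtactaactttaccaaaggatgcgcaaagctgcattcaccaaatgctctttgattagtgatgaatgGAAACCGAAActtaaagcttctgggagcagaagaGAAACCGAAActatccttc 
Ifit3, chr19:34583279-34583528 on the plus strand: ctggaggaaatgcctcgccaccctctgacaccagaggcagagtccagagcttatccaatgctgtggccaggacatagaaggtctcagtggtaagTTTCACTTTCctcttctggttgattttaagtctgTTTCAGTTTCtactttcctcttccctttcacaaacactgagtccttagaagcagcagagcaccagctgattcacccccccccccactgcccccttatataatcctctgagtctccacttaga

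**Figure D3:**
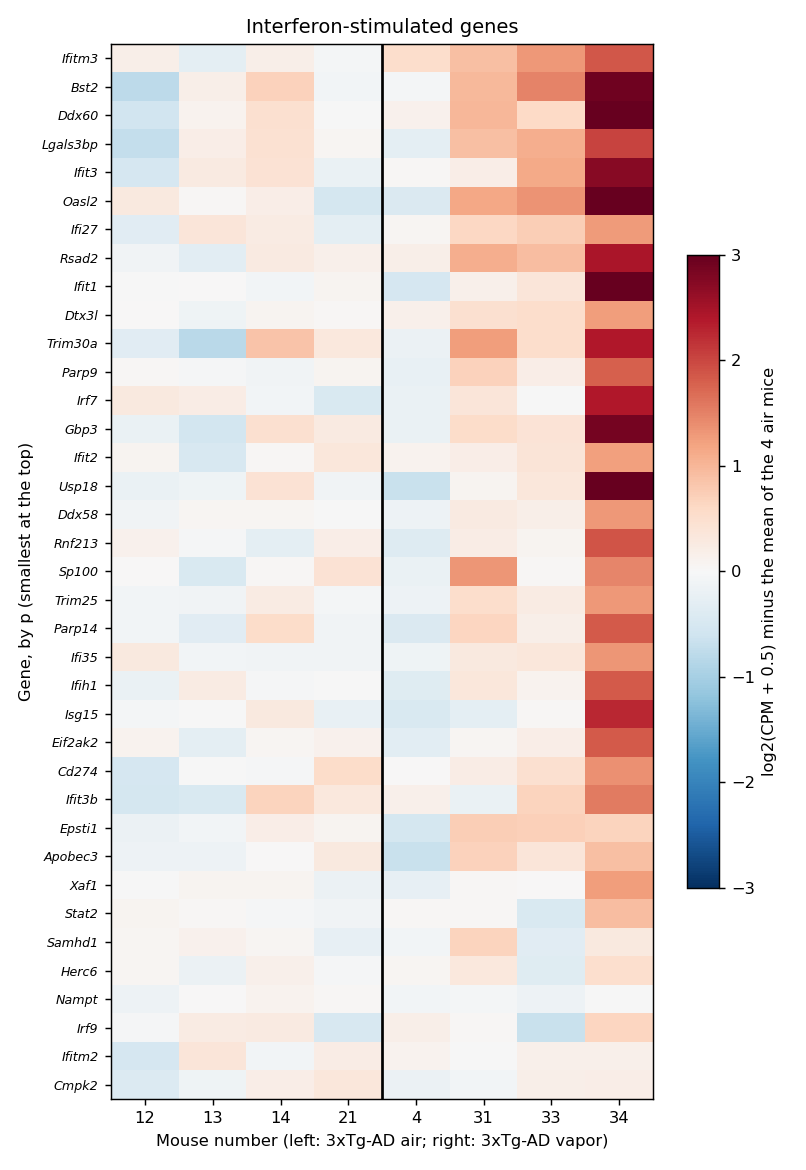
Level of 37 of the 38 tested interferon-stimulated genes (one line each, smallest p at the top) in the 8 3xTg-AD mice (columns, air left, vapor right). Color is log2(CPM + 0.5) minus the mean of the 4 air mice, red higher and blue lower. The column of vapor mouse 34 is red over most of the list, with a summed level of 981 CPM against 340 to 437 CPM in the other vapor mice.

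Antigen presentation and complement genes had smaller medians than the interferon list with all 4 vapor mice, and larger ones without mouse 34. At an unadjusted p under 0.05, 5.02% of all tested genes were higher, and without mouse 34 1665 of 17031 genes differed in either direction. Of 14 MHC class I presentation genes, which display peptides to T cells, 8 were higher and 0 lower at an unadjusted p under 0.05 and 0 passed the adjusted test of edgeR (1 higher in DESeq2), with a median log2 fold change of 0.55 (0.31, and 3 of 14 higher, without mouse 34). H2-K1, a heavy chain, was at 15.3, 20.02, 24.3 and 37.8 CPM with vapor and 7.83, 13.6, 13.1 and 14.2 CPM with air (0.99 ± 0.24, adjusted p = 0.0726, edgeR). Every vapor mouse was above every air mouse. Of 13 complement genes, 1 passed (C4b) and 5 were higher at an unadjusted p under 0.05, with a median of 0.32 (0.22, and 4 of 13 higher, without mouse 34). Masp2, the complement protease called lower above, is not a member of this list. Summed, the complement genes were at 426, 433, 488 and 522 CPM with vapor and 424, 336, 349 and 346 CPM with air, where air mouse 12 nearly met the lowest vapor mouse. C1qa, a subunit of the complement starter C1q that microglia make, was at 28.9, 31.4, 46.9 and 49.3 CPM with vapor and 17.5, 24.0, 29.9 and 22.8 CPM with air (0.73 ± 0.19, adjusted p = 0.0912, edgeR), so that the groups overlapped. C1qb (0.79) and C1qc (0.59) had log2 fold changes of like size and did not pass.

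Markers of glial activation had medians close to that of the complement list, and 0 passed the adjusted test of edgeR (1 in each list was higher in DESeq2). Of 16 genes of activated microglia, 4 were higher at an unadjusted p under 0.05 (median 0.37), with Cd9 first at 0.53 ± 0.17 (adjusted p = 0.163, edgeR). Of 18 reactive astrocyte genes, 4 were higher (median 0.34), among them Gfap, the astrocyte filament (0.90 ± 0.30, adjusted p = 0.196), Vim, another filament (0.56), and Mt3, a zinc-binding metallothionein at 395, 300, 481 and 290 CPM with vapor and 220, 267, 242 and 254 CPM with air (0.58 ± 0.16, adjusted p = 0.12). Mt1, another metallothionein, had 0.39 ± 0.16 (adjusted p = 0.329). Over all tested genes, 5.02% were higher at this unadjusted threshold. Myelin genes had a median of 0.26 and of 0.05 without mouse 34, with no member below an unadjusted p of 0.05.

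The GABA-A, NMDA, vesicle release, calcium and activity-dependent lists had medians of -0.21 to 0.17. At the unadjusted threshold used for their members, 5.02% of all tested genes were higher and 6.99% lower. Of 13 GABA-A receptor subunits, 3 were higher at an unadjusted p under 0.05 (median 0.17), with Gabrb1 at 188, 236, 193 and 210 CPM with vapor and 187, 162, 163 and 151 CPM with air (0.32 ± 0.10, adjusted p = 0.166, edgeR). Of 6 NMDA receptor subunits, Grin2a was lower at that threshold, at 473, 414, 443 and 471 CPM with vapor and 554, 555, 589 and 521 CPM with air (-0.30 ± 0.10, adjusted p = 0.219, edgeR). The groups did not overlap for either gene. Glra2, a glycine receptor subunit, had a log2 fold change of 0.92 ± 0.35 (adjusted p = 0.266). Of 34 genes of synaptic vesicle release, 1 was higher and 4 lower, with the calcium sensor Syt2 first (-0.89 ± 0.22, adjusted p = 0.0794), and of 38 calcium genes the kinase Camkk1 came closest (-0.48 ± 0.12, adjusted p = 0.0665). Of 32 activity-dependent genes, 2 were lower at an unadjusted p under 0.05, and the median was -0.21 (-0.07 without mouse 34). Arc, the synaptic scaffold induced by firing, was at 25.9, 20.6, 57.4 and 10.97 CPM with vapor and 32.3, 71.1, 68.1 and 34.9 CPM with air, which overlap. In edgeR 0 members of these lists passed the adjusted test. DESeq2 called 2 GABA-A subunits higher and 1 NMDA receptor subunit, 1 calcium gene and 1 gene of vesicle release lower.

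Lists tied to Alzheimer's disease and to ethanol itself showed no difference that passed the test. The 22 tested genes of APP and its processing and the 28 genes at Alzheimer risk loci had medians of 0.01 each, with 0 members at an unadjusted p under 0.05 in edgeR and 0 called by DESeq2, and the 20 genes of tau and its kinases had -0.04, with Mark1, a tau kinase, at -0.37 ± 0.14 (adjusted p = 0.247, edgeR). The 13 enzymes of ethanol and acetaldehyde metabolism had a median of 0.08. Cytosolic ribosomal protein genes (83) had a median of 0.12 and nuclear respiratory chain genes (66) of 0.05. These 3 medians moved with single mice: without air mouse 12 they were -0.02, 0.02 and -0.08, and without vapor mouse 34 they were 0.12, 0.22 and 0.17. Tmsb4x, thymosin beta-4, at -0.05 ± 0.22, Cmss1, at 0.07 ± 0.16, and Cdk8, at 0.05 ± 0.14, moved by less than their standard errors. Cdh10 (0.32 ± 0.14) and Pcdh17 (0.31 ± 0.20), 2 cadherin-family adhesion genes, had adjusted p = 0.366 and 0.6 (edgeR). Of 24 tested genes of that family, 2 were higher and 1 lower at an unadjusted p under 0.05, where 5.02% and 6.99% of all tested genes were. DESeq2 called 1 of them lower. Lars2 and Gm42418 had log2 fold changes of -1.17 ± 0.61 and -1.60 ± 0.69, of a size set mostly by air mouse 12, at 1318 and 19103 CPM. The other air mice were at 308 to 393 and 3420 to 3891 CPM and the vapor mice at 235 to 331 and 1958 to 3296 CPM, so that the groups overlapped for Lars2 and did not for Gm42418.

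**Figure D4:**
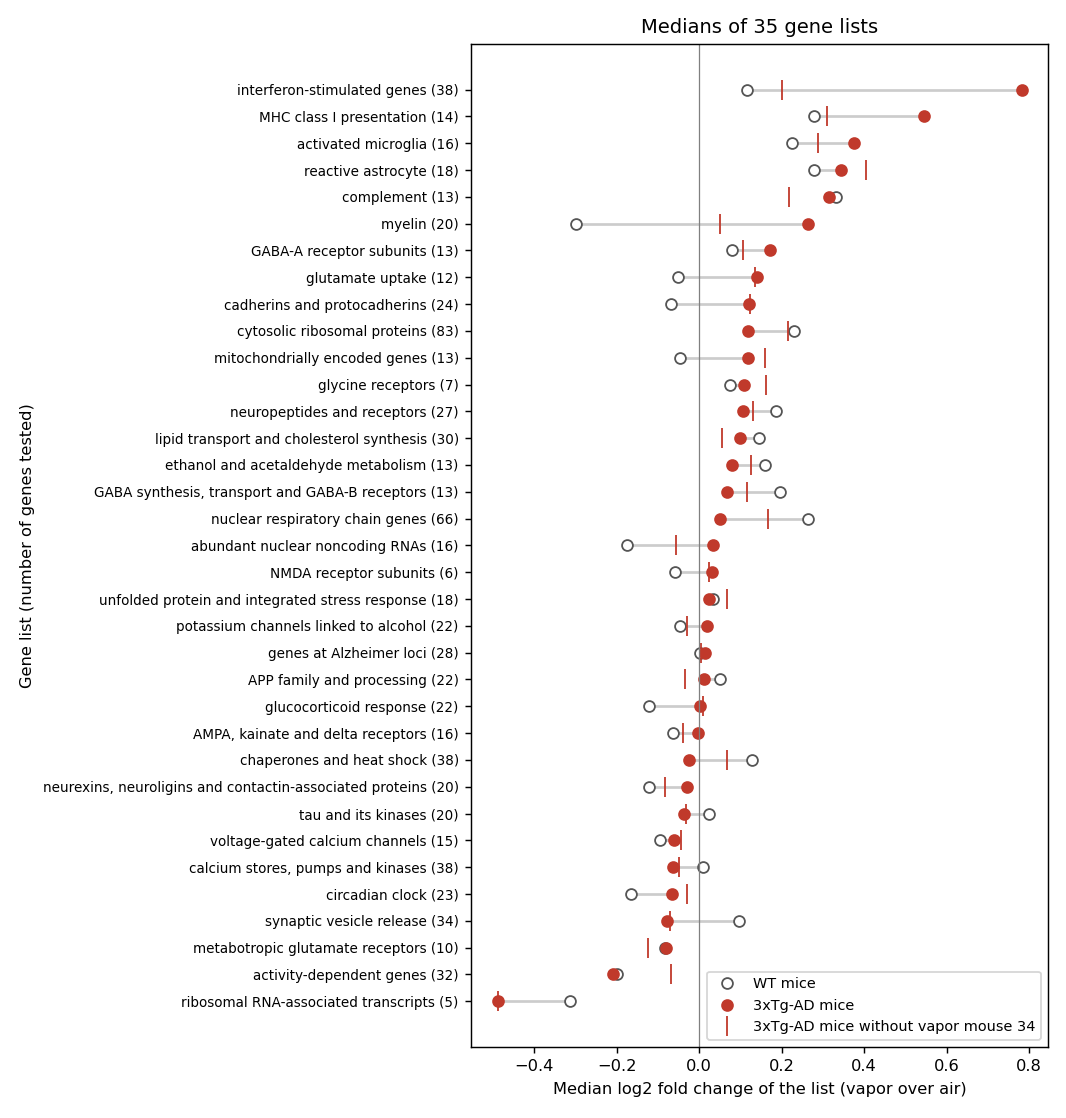
Median log2 fold change of vapor over air (x axis) of 35 gene lists (y axis, number of tested genes in brackets): filled red points 3xTg-AD mice, open points WT mice, red ticks 3xTg-AD mice without vapor mouse 34. Interferon-stimulated genes are highest at 0.78 and drop to 0.20 without mouse 34.

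Nuclei with glial markers made up a larger share in the vapor mice, and the part of this share in the results above was not tested for single lists. Each nucleus was placed in a class by how many of 8 markers of each type it expressed, which placed 28534 of the 57759 nuclei. Astrocyte-like, oligodendrocyte-like, OPC-like and microglia-like nuclei together made up 11.3%, 14.9%, 12.4% and 16.1% of the nuclei of vapor mice 4, 31, 33 and 34 and 10.8%, 9.57%, 9.97% and 9.20% of those of air mice 12, 13, 14 and 21. The glial share was 13.7 ± 2.24% (SD, n = 4) with vapor and 9.90 ± 0.705% with air (exact permutation test, p = 0.0286), and this sum of classes was formed after the shares were seen. No single class passed adjustment over the 8 classes, but this outcome was nearly fixed in advance. The exact permutation test of 4 against 4 mice cannot give a p below 0.0286. A class or sum that reaches this p alone cannot pass adjustment over 8 classes or over 56 sums. Astrocyte-like nuclei were at 8.61 ± 0.729% against 6.71 ± 0.732% (exact permutation test, p = 0.0286, adjusted p = 0.171). Microglia-like nuclei were at 1.73 ± 0.665% against 0.908 ± 0.369% (p = 0.0857, adjusted p = 0.171, exact permutation test). GABAergic-neuron-like nuclei were at 3.41 ± 0.575% against 2.65 ± 0.548% (exact permutation test, p = 0.0857, adjusted p = 0.171). OPC-like nuclei, whose marker Pdgfra was called higher, made up 0.671% to 1.31% of nuclei with vapor and 0.415% to 0.853% with air, which overlap. Of the 8 OPC markers, 6 had a log2 fold change above 0, and only Pdgfra was at an unadjusted p under 0.05 (edgeR). The summed level of these markers had a ratio of 1.06 (exact permutation test, p = 0.429, adjusted p = 0.753 over 56 sums). Glutamatergic-neuron-like nuclei were at 34.5 ± 4.73% against 35.5 ± 3.42%. The share of nuclei placed in any class ran from 44.3% to 60.5% over the 8 mice. Of placed nuclei alone, glutamatergic-neuron-like ones made up 66.4 ± 2.57% with vapor and 73.4 ± 0.643% with air (exact permutation test, p = 0.0286, adjusted p = 0.152), and astrocyte-like ones 16.9 ± 2.95% and 14.04 ± 2.48% (p = 0.229, adjusted p = 0.366, exact permutation test). With each nucleus thinned to 500 UMIs, glutamatergic-neuron-like nuclei were at 4.90% and 6.26% of all nuclei (exact permutation test, p = 0.0286, adjusted p = 0.171) and astrocyte-like nuclei at 5.90% and 4.43% (p = 0.0571, adjusted p = 0.171, exact permutation test). The summed level of the 8 glutamatergic neuron markers had a ratio of 0.928 (exact permutation test, p = 0.0286, adjusted p = 0.267 over 56 sums). The summed level of the 8 astrocyte markers had a ratio of 1.22 (exact permutation test, p = 0.171, adjusted p = 0.505) and that of the 8 microglia markers of 1.25 (exact permutation test, p = 0.0857, adjusted p = 0.369). With the glial share as a covariate, 0 genes passed the adjusted test (1427 at an unadjusted p under 0.05) and all 81 kept their sign, the lower ones with a median of -0.84 instead of -1.14. The share and the group overlap so closely in these 8 mice that the part of each cannot be told apart.

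Within classes, most calls were made in glutamatergic-neuron-like nuclei, the most numerous class. In glutamatergic-neuron-like nuclei, 59 of 14940 genes passed (0.395%), 10 higher (0.0669%) and 49 lower (0.328%). That count was 0 without air mouse 13 or 21 or vapor mouse 31, 33 or 34, 34 without vapor mouse 4 and 279 without air mouse 12. Of the 71 genes lower over all nuclei, 67 were tested there, all 67 were below 0 and 35 passed. The counts of these nuclei are a large part of the sum that chose the 71 genes, so that this is no separate support. Named genes of this class follow. Degs2 (-1.10), Hipk2 (-0.81), Gss (-0.83), Xirp2 (-1.37) and Cntn3 (-0.56) were among the 35, and Vps50 (0.58, adjusted p = 0.049) was among the higher ones. In GABAergic-neuron-like nuclei, 13 of 8965 genes passed (0.145%), 3 higher (0.0335%) and 10 lower (0.112%), and 2 to 8 without vapor mouse 4, 31, 33 or 34 or air mouse 13, 14 or 21. Gss was at 50.4 CPM with vapor and 118 CPM with air there (-1.19 ± 0.20, adjusted p = 0.0012, edgeR), Hipk2 at 116 and 204 CPM (-0.81 ± 0.17), and Dlx1, an interneuron transcription factor that is also one of the markers of the class, at 186 and 355 CPM (-0.92 ± 0.20).

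In astrocyte-like nuclei, 13 of 9760 genes passed (0.133%), 3 higher (0.0307%) and 10 lower (0.102%), which became 21 without vapor mouse 4, 4 without vapor mouse 33, 6 without air mouse 13 and 7 without air mouse 21 or vapor mouse 34. Ifitm3 was the largest of the higher ones, at 46.9 ± 27.8 CPM (SD, n = 4) with vapor and 8.82 ± 5.85 CPM with air (log2 fold change 2.27 ± 0.43, adjusted p = 0.0158, edgeR). C1qa, at 47.7 ± 11.8 against 20.6 ± 4.22 CPM (1.19 ± 0.27, adjusted p = 0.0373), is a microglial gene, and its counts in this class were not separated from free RNA or nuclei captured together. Mt3 was at 746 ± 65.1 against 470 ± 20.5 CPM (0.67 ± 0.15, adjusted p = 0.044). None of these 3 higher calls held without air mouse 13, without vapor mouse 33 or with a wider class rule (at least 2 markers and 1 more than any other class), where 0 genes were higher and 6, 4 and 11 lower in edgeR (576, 558 and 811 genes at an unadjusted p under 0.05). Of the genes higher over all nuclei, C4b, F3 and Pdgfra stood higher in a glial class than in glutamatergic-neuron-like nuclei: C4b was at 66.8 CPM in astrocyte-like nuclei and 1.37 CPM in glutamatergic-neuron-like nuclei of air mice, F3 at 179 and 5.53 CPM, and Pdgfra at 1614 CPM in OPC-like nuclei and 3.99 CPM in glutamatergic-neuron-like nuclei. Pdgfra is 1 of the 8 OPC markers, so that its level in that class follows from the choice of nuclei. Within those classes their log2 fold changes were 1.43 ± 0.36 for C4b, 0.56 ± 0.16 for F3 and 0.50 ± 0.19 for Pdgfra, and none of these 3 passed (adjusted p = 0.275, 0.24 and 0.71, edgeR). In oligodendrocyte-like nuclei 1 of 3400 genes passed (0.0294%), Gm10076 (1.86). In OPC-like, microglia-like and endothelial-like nuclei 0 of 1383, 1736 and 811 genes passed in edgeR or in DESeq2, with 78, 117 and 70 genes at an unadjusted p under 0.05 in edgeR. These classes held as few as 30, 34 and 15 nuclei in a 3xTg-AD mouse, and 37, 19 and 13 in a WT mouse.

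**Figure D5:**
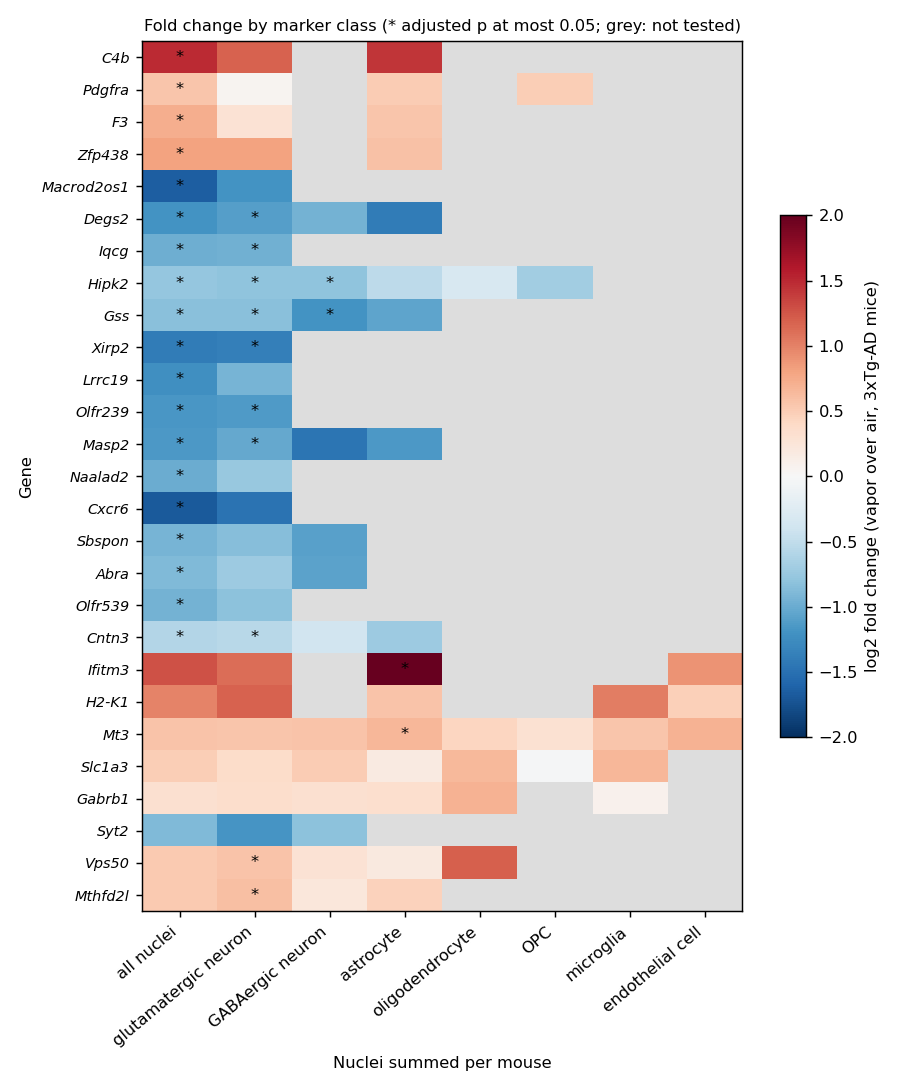
Log2 fold change of vapor over air in 3xTg-AD mice (color, red higher and blue lower) of the named genes (lines), over all nuclei and in 7 marker classes (columns). Asterisks mark an adjusted p of at most 0.05, and grey marks genes not tested in a class. The lower genes tested in glutamatergic-neuron-like nuclei are blue in that column, and Gss is blue in both neuron columns, at -0.83 and -1.19.

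In WT mice, most of the genes called in 3xTg-AD mice had a log2 fold change of the same sign. Of the 71 lower genes, 68 had a log2 fold change below 0 in WT vapor against WT air mice, where 51.2% of all tested genes did, with a median of -0.54 and 49 lower at an unadjusted p under 0.05 (7.12% of all genes). Of the 10 higher genes, 9 were above 0 in WT mice, with a median of 0.39 and 4 higher at an unadjusted p under 0.05 (7.06% of all genes). As in 3xTg-AD mice, the WT vapor libraries were deeper on average, with 14576000 against 12033700 UMIs. Gm42418 took 0.325% of UMIs with vapor and 1.41% with air in WT mice. The part of these differences in the shared signs was not tested. In the WT comparison itself, 3 of 16767 genes passed (0.0179%), 1 higher (0.00596%) and 2 lower (0.0119%): Dynlt1f, a dynein light chain gene (-1.98), which was also called lower in 3xTg-AD mice (-1.17), 9030025P20Rik, lower, and Olfr545, higher. DESeq2 called 149 genes there (0.745% of 19999). It gave no adjusted p to 12409 genes in this comparison and to 1182 in that of 3xTg-AD mice, so that the 2 DESeq2 percentages are not alike. The test of whether the effect of vapor differs between genotypes called 0 genes in edgeR, with 273 above 0 (1.63%) and 310 below 0 (1.85%) at an unadjusted p under 0.05, and 1 gene in DESeq2 (0.005%). C4b had a log2 fold change of 1.49 in 3xTg-AD mice and 0.40 in WT mice, a difference of 1.09 ± 0.36 (adjusted p = 0.944, edgeR). WT mice were at 4.88 ± 2.20 CPM with air and 6.59 ± 0.613 CPM with vapor (SD, n = 4). F3 had 0.73 and 0.05, Selenop 0.54 and -0.19 and Sbspon, a secreted matrix protein, -0.93 and 0.10. The 3 differences were 0.68 ± 0.20, 0.73 ± 0.17 and -1.03 ± 0.23 (adjusted p = 0.944 each, edgeR). Hipk2 (-0.77 and -0.57), Fcer1g (0.82 and 0.76) and Cntn3 (-0.59 and -0.63) had differences of -0.20 ± 0.18, 0.06 ± 0.27 and 0.04 ± 0.16. Complement genes had a median of 0.33 in WT mice, with 11 of 13 above 0 and 4 higher at an unadjusted p under 0.05, much like the 0.32 of 3xTg-AD mice. MHC class I genes had 0.28, with 5 of 14 higher, and their summed level did not overlap between WT vapor (307 to 333 CPM) and WT air mice (271 to 304 CPM), while it overlapped in 3xTg-AD mice (323 to 419 and 290 to 353 CPM). None of the interactions named here passed adjustment in edgeR, and the glial share was 9.92% in WT vapor and 10.1% in WT air mice. Within it, microglia-like nuclei were at 1.01% and 0.702%, OPC-like nuclei at 0.804% and 0.686%, astrocyte-like nuclei at 6.51% and 6.26% and oligodendrocyte-like nuclei at 1.60% and 2.43%. The summed microglia markers had a ratio of 1.22 in WT mice (exact permutation test, p = 0.114).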

How the data were processed

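Per the labels and the paper's methods, the authors aligned the reads to mm10 with Cell Ranger 6.1.1 (STAR) and deposited 1 table of raw UMI counts per gene and nucleus, without normalization. Its values were whole numbers, no column lacked a sample, and no row lacked a gene name. Whether introns were counted and how nuclei were filtered is not given in the sources used here. No doublets were removed here.

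Counts were summed per mouse (16 mice, 216742276 UMIs) and tested with edgeR 4.0.16 in R 4.3.3: filterByExpr, TMM scaling, 1 mean for each of 4 groups over all 16 mice and robust quasi-likelihood tests. DESeq2 1.42.0, which the study used, was an alternative, so that edgeR's test replaced it as the main one. P-values were adjusted over all genes tested by the method of Benjamini and Hochberg. Values after ± are SE for log2 fold changes and SD for levels and shares. Nothing in the labels says that litters or library batches were balanced between the groups.

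A nucleus was placed in a class when it expressed at least 3 of 8 markers of a type and at least 2 more than of any other. Marker classes were tested where at least 3 mice per group had at least 10 nuclei, so that pericyte-like nuclei were not tested. Medians and exact permutation tests (two-sided) were computed with Python 3.11.15 and scipy 1.17.1. Positions came from GENCODE M21 (GRCm38, the build mm10), where 19636 of 19999 gene names matched. Promoter windows came from RefSeq.

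Named genes were the 15 called genes of smallest p in each direction that have a symbol (or all, filled up to 10), from each of 35 gene lists and 14 marker lists up to 4 called members or otherwise the member of smallest p, and the genes the study discusses. Some genes of the lists and 1 feature of the model are not reported here. The labels alone set which mice belong to the comparison, but this comparison, its named members and the lists were chosen with earlier results of these data known. The script was tested on simulated data: for vapor within 3xTg-AD mice on 16579 genes, 38.8% of genes changed 1.5-fold were recovered, 71.6% of those changed 2-fold and 86.4% of those changed 4-fold, with 9 false calls.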

Additional observations from a re-analysis of the deposited data

Results flagged for a closer look

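In 20 of 158 sets of 4 values, 1 mouse stood apart from the other 3 of its group by Dixon's criterion for a gap relative to the range. Chance gives this in about 1 of 20 independent sets. These sets come from the same mice and in part hold the same genes, such as Gm42418 and the ribosomal RNA-associated list. They are not independent, so that the count of 20 cannot be weighed against that rate. Vapor mouse 34 stood apart in the summed level of interferon-stimulated genes (981 CPM), of layer 6 neuron markers (475 CPM, others 257 to 289) and of striatal neuron markers (241 CPM, others 285 to 294), and in Zfp438 (12.3 CPM). Vapor mouse 4 was the highest of its group in the sum of genes inside a protein-coding gene on the opposite strand (15772 CPM).

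Air mouse 12 stood apart in its number of nuclei (5865), in Gm42418 (19039 CPM after TMM scaling over all genes, 1.79% of UMIs) and in the summed levels of ribosomal RNA-associated transcripts (21879 CPM), cadherins and protocadherins (2689 CPM), complement genes (424 CPM), genes at Alzheimer loci (3652 CPM), reactive astrocyte genes (667 CPM), oligodendrocyte markers (545 CPM) and genes inside a protein-coding gene on the same strand (7929 CPM). Without it, 244 genes passed the test (56 higher, 188 lower). Air mouse 21 stood apart in choroid plexus and ependymal markers (53.3 CPM, others 5.93 to 7.96) and in pericyte and leptomeningeal markers (47.2 CPM). Among named genes, air mouse 14 was the lowest of its group in Macrod2os1 (7.41 CPM) and Olfr539 (11.1 CPM), and air mouse 13 the highest in Naalad2 (14.8 CPM).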

How the results depend on the processing

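No paired analysis was possible because the replicate numbers are mouse numbers that the groups do not share. The number of genes called between vapor and air in 3xTg-AD mice was 81 and became 386 in DESeq2, 169 in a fit of the 8 3xTg-AD mice alone, 1008 (361 higher, 647 lower) with Gm42418 as a covariate and 0 with the glial share as a covariate (an alternative added after the data were seen), and lay between 0 and 244 when 1 mouse was left out. It was 82 to 96 without low-count filter, with RLE scaling, with stricter nuclei, without ribosomal and mitochondrial genes or with the glutamatergic share as a covariate. In WT mice 149 genes were called in DESeq2, 1 with each of the 3 covariates, and 1 to 5 with a mouse left out. The interaction gave 1 in DESeq2 and 0 to 1 with a mouse left out.

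Within classes, the fit of 8 mice called 134 genes in glutamatergic-neuron-like, 24 in GABAergic-neuron-like, 8 in astrocyte-like, 3 in oligodendrocyte-like, 1 in microglia-like and 1 in endothelial-like nuclei. DESeq2 called 252 in glutamatergic-neuron-like, 8 in astrocyte-like and 0 in oligodendrocyte-like nuclei. Without low-count filter there were 26 in GABAergic-neuron-like, 34 in astrocyte-like, 0 in oligodendrocyte-like and 1 in microglia-like nuclei. With a wider class rule (at least 2 markers and 1 more than any other class, added after the data were seen), there were 37 in glutamatergic-neuron-like, 9 (1 higher) in GABAergic-neuron-like, 11 (0 higher) in astrocyte-like, 0 in oligodendrocyte-like and 2 in endothelial-like nuclei. With 1 mouse left out the counts were 0 to 279 in glutamatergic-neuron-like, 2 to 12 in GABAergic-neuron-like, 4 to 21 in astrocyte-like, 0 to 3 in oligodendrocyte-like, 0 to 1 in OPC-like and in microglia-like, and 0 to 6 in endothelial-like nuclei.

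The difference in the share of endothelial-like nuclei changed sign with nuclei thinned to 500 UMIs (0.00497 percentage points) and with the wider rule (0.0216). With a mouse left out, it was -0.0275 to 0.0202 points, that of glutamatergic-neuron-like nuclei -2.99 to 0.839 and that of pericyte-like nuclei -0.000326 to 0.0224. Of the named genes, those that changed sign were not called in 3xTg-AD mice. With Gm42418 as a covariate, the log2 fold change became 0.0062 for Gria4, 0.25 for Lars2 and 0.10 for Gm42418 itself. With the glial share it became -0.74 for Cldn11, 0.42 for Tmsb4x and -0.14 for Cdk8. With a mouse left out, Tmsb4x lay at -0.22 to 0.077, Cmss1 at -0.055 to 0.18 and Cdk8 at -0.028 to 0.21. The 19 called named genes kept their direction under every alternative run, which for a mouse left out largely follows from groups that do not overlap. All 19 lost the call with the glial share and without air mouse 13 or 21 or vapor mouse 31, 33 or 34, as did 4 without vapor mouse 4, 2 in the fit of 8 mice and 1 without air mouse 14 or without WT mouse 7, 18, 26, 27 or 36. The causes were not tested. A count of 0 has limits: with 4 mice per group and sums over all nuclei, 38.8% of simulated 1.5-fold changes were recovered. The simulation did not cover fits with a mouse left out, with a covariate or within classes.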
